A study of Homo sapiens with 6 samples.

Results

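The early difference between a radioresistant line and its parent was examined on the arrays taken 8 h after irradiation. TE13R is the radioresistant line that was obtained from the human esophageal squamous cancer line TE13 by repeated fractionated irradiation, and it stands for 1 such derivative. The members are the arrays titled TE13R 8h and TE13 8h, which are 2 of the 6 arrays analysed here. The remaining 4 arrays are those of TE13R and TE13 at 0 h and at 24 h. Both lines were grown in the same serum-containing RPMI medium and irradiated with X-rays from a linear accelerator. The dose given to the cells on the arrays is not stated in the sources used here. For the RT-PCR of the study 0 h was the time before irradiation, but for the array samples the labels name it only as a time of radiation. The tag for the cell line reads TE13 on every array, so that TE13R is known from the titles and from the description of those cells as not sensitive to radiation. Total RNA was labelled with biotin and hybridised to Illumina Human-6 V3 arrays of 1 colour, 1 array for each line and time. The methods give the profiling as done in triplicate, and whether a deposited column is 1 hybridisation or an average is not stated. Each line and time thus has 1 column of values, called an array here, with no replicates beside it, so that no test was run and no p-value is given. In cultured cells in bulk, fewer cells of a type and less RNA per cell cannot be told apart.

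Interferons are secreted proteins that bind receptors on the cell surface and, through the kinases JAK1 and TYK2, activate STAT proteins. These join IRF9 and bind a DNA element, the interferon-stimulated response element, before many genes that act against viruses, present antigens and slow growth. Ionizing radiation damages DNA, and fragments of DNA in the cytosol are a known trigger of interferon production in tumour cells. Squamous carcinoma cells of the esophagus also carry the keratins and envelope proteins of stratified epithelium, and stressed cells of many kinds use the factor ATF4 to turn on genes of amino acid supply.

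The deposited intensities are on a linear scale. The difference between the lines is given as TE13R minus TE13 on log2(intensity + 16), so that 1 unit is 2-fold for a bright gene and the fold of a dim gene is understated. An intensity above 20.2 was taken as above the detection limit, and 37.3% of the probes lay above it on each array. The brightest probe stood for each of 12783 genes, of which 9863 were above the limit on both 8 h arrays and 1553 on neither. Folds are ratios of the intensities themselves. Where 1 array lay below the limit, the limit took its place and the fold is written as at least that large. Genes were called 2-fold apart at 1 log2 unit of the difference, whatever that fold. A dim gene so called can thus have a bound under 2, such as at least 1.07-fold for APOBEC3G at 8 h. All 8 keratinocyte markers with a probe lay above the limit in both lines at 8 h. Of 10 fibroblast markers 1 lay above it in TE13R and 2 in TE13, and of 9 leukocyte markers 3 did in TE13R and 4 in TE13. Of 7 endothelial markers 2 lay above it in both TE13R and TE13. Among these VWF, the von Willebrand factor, had 62.6 in TE13R and 20.6 in TE13 at 8 h, after 940.0 in TE13R and 44.3 in TE13 at 0 h. Among the markers below the limit on both 8 h arrays were CD3D, CD3E and PTPRC of leukocytes, CDH5 of endothelium and COL3A1 and DCN of fibroblasts. COL1A1 of fibroblasts and CSF1R of leukocytes were above it in TE13 (28.8 and 61.7) and below it in TE13R (2.45 and 3.13).

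At 8 h, 536 genes (4.19% of all tested) were at least 2-fold higher in TE13R and 645 (5.05%) were at least 2-fold lower, with the brighter array above the limit. At 0 h, 795 genes (6.22%) were higher in TE13R and 601 (4.7%) lower. The genes just past the 2-fold line at 8 h had differences of 1.0002 (ERMP1) and 1.0013 (GAL3ST4), and the nearest below it had 0.9997 (AHDC1) and 0.9994 (TSSK1B). Of the genes apart at 8 h, 172 higher and 214 lower genes were also at least 2-fold apart in the same direction at 0 h. A further 163 higher genes (1.28% of all tested) and 158 lower genes (1.24%) were level at 0 h, with a difference under 0.5 log2 units in either direction and at least 1 line above the limit there. The higher genes were thus 50.8% of the 321 level genes, but 30.4% of 102 with an offset of 64 in place of 16. Another 78 higher and 86 lower genes were below the limit in both lines at 0 h, with a difference under 0.5 log2 units there. Between these classes were 121 higher and 176 lower genes. Some of these, such as E2F1 and IL24, were also below the limit in both lines at 0 h but differed by more. The remaining 13 genes had been at least 1 log2 unit apart in the opposite direction at 0 h. At each time the lines were more alike than either line was to itself between 0 h and 8 h. The 8 h arrays of TE13R and TE13 had a Pearson correlation of 0.97 over the genes tested, which share arrays and are not replicates. The correlation between the lines was also 0.97 at 0 h and at 24 h. Between the 0 h and 8 h arrays the correlation was 0.90 in TE13R and 0.87 in TE13, and 43.3% of the genes in TE13R and 50.8% in TE13 were at least 2-fold apart between the 2 times.

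**Figure D1:**
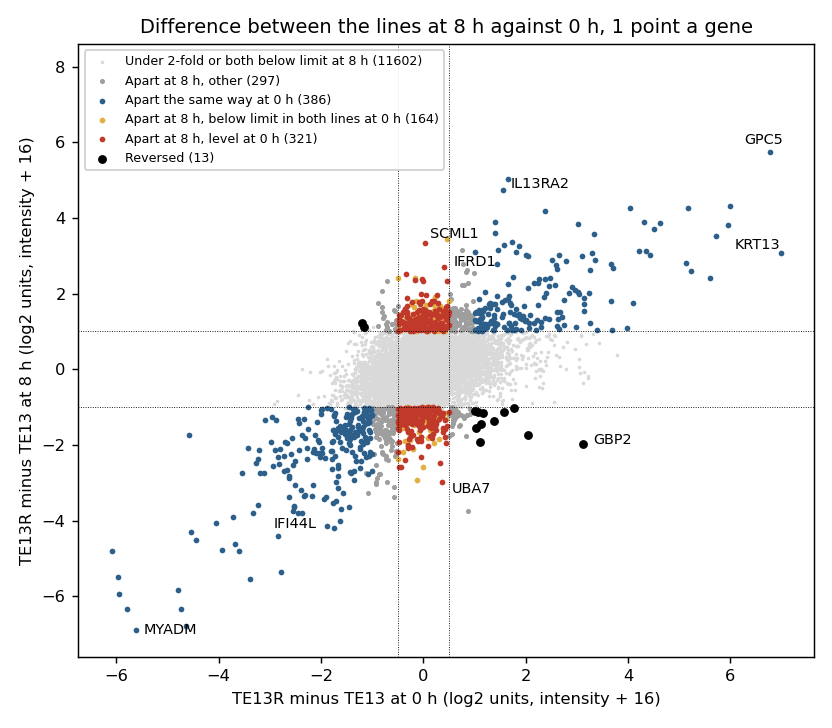
Difference between TE13R and TE13 at 8 h (vertical axis) against the difference at 0 h (horizontal axis), both in log2 units of intensity + 16, with 1 point a gene for 12783 genes. Dotted lines mark 1 unit at 8 h and 0.5 units at 0 h. The 321 red genes lie apart at 8 h and near 0 at 0 h, and the 13 black genes lie on opposite sides of 0 at the 2 times.

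The interferon-stimulated genes were the group most often lower in TE13R at 8 h among the gene lists. Of 37 measured genes of this list, 19 (51.4%) were at least 2-fold lower and none was higher in TE13R, against 5.05% lower over all genes. Their median difference at 8 h was -1.04, beside 0.01 for all genes. At 0 h it stood at -0.79, and at 24 h at -0.76. A negative difference was found for 35 of the 37 genes, and the other 2 were at or below 0 in intensity in both lines. Of the 19 lower genes, 10 were already 2-fold lower at 0 h, 3 were between the classes and 6 were level at 0 h. Earlier results of these data showed this list to be lower in TE13R over the 3 times, so that its direction is not independent evidence here.

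IFIT2, OAS1, IFI35, IRF9, ISG15 and IFITM2 were the members that were level at 0 h. IFIT2, which binds viral RNA, had an intensity of 229.7 in TE13R and 708 in TE13 at 8 h, a 3.08-fold difference, after 3445 in TE13R and 3105 in TE13 at 0 h. OAS1, which senses double-stranded RNA, had 859.8 in TE13R and 2301 in TE13 at 8 h, after 1839 in TE13R and 1669 in TE13 at 0 h. Its second probe differed by -1.34 log2 units, beside -1.40 for the first. These transcripts were both lower at 8 h than at 0 h in TE13R, while in TE13 IFIT2 was lower and OAS1 was higher than at 0 h. ISG15, a ubiquitin-like protein that is joined to other proteins, had 11671 in TE13R and 24759 in TE13 at 8 h, after 9992 in TE13R and 11418 in TE13 at 0 h. IRF9, the DNA-binding partner of the STAT proteins, had 2839 in TE13R and 6218 in TE13 at 8 h, after 5058 in TE13R and 6518 in TE13 at 0 h. The differences were -1.08 for ISG15 and -1.13 for IRF9 at 8 h, and -0.19 and -0.36 for the same genes at 0 h. IFI35 and IFITM2, a membrane protein that restricts viral entry, had differences of -1.31 and -1.04 at 8 h. ISG15, IRF9, IFI35 and IFITM2 were named after their values were seen. At 24 h none of the 6 was 2-fold lower by its brightest probe, and these differences lay between 0.34 for IFIT2 and -0.76 for IRF9. The second probe of OAS1 differed by -1.06 at 24 h.

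Other members of the list were lower at both times, and several were farther apart at 8 h. MX2, a GTPase that restricts viruses, had 78.5 in TE13R and 1159 in TE13 at 8 h, a 14.8-fold difference, after 1029 in TE13R and 2840 in TE13 at 0 h. IFI44L had 2.59 in TE13R and 281 in TE13 at 8 h and was at least 13.9-fold lower in TE13R. Its dimmer second probe pointed the other way, with 54.1 in TE13R and 9.07 in TE13. MX1 had 2853 in TE13R and 13186 in TE13 at 8 h, and DDX60, an RNA helicase, had -3.01 in TE13R and 88.3 in TE13. EPSTI1, IFITM1, OAS2, IFIT3 and IRF7 had differences of -2.21, -1.93, -1.92, -1.90 and -1.83 at 8 h, of which those of OAS2 and IFIT3 had second probes at -1.98 and -2.53. IFIT1 had a difference of -1.61 at 8 h and 0.59 at 24 h, and its second probe, at 58.3 in TE13R and 30.9 in TE13 at 8 h, differed by 0.66. Of the 6 lower genes of the list that had a second probe above the limit, 4 had it at least 1.5-fold lower and 2, IFI44L and IFIT1, had it higher. All but MX2, IFI44L, IFIT2 and OAS1 in the list were named after their values were seen. The genes of the list that were not apart had differences between -0.93 for SAMD9 and 0.00. They included IFITM3 (-0.89), IFI27 (-0.54), RIGI (-0.53), IFI16 (-0.13) and USP18 (-0.02).

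**Figure D2:**
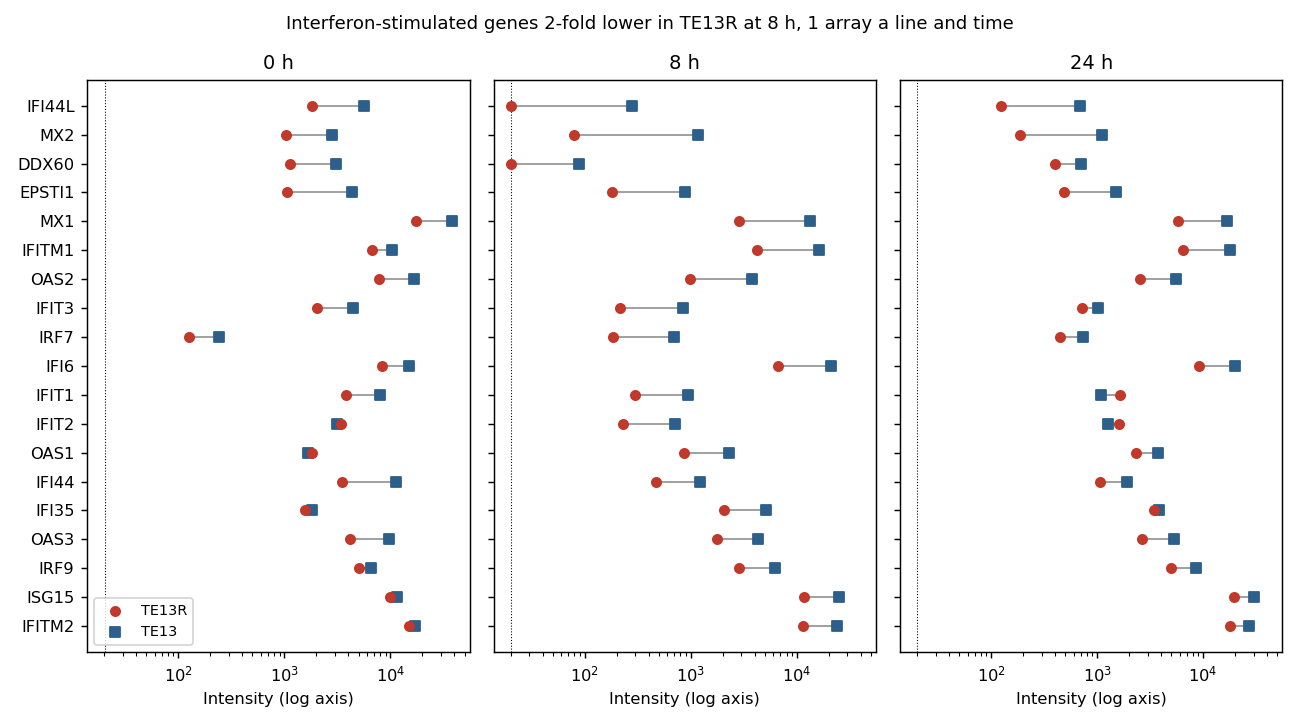
Intensity on a log axis of the 19 interferon-stimulated genes that were 2-fold lower in TE13R at 8 h, at 0, 8 and 24 h, with red circles for TE13R, blue squares for TE13 and 1 array behind each point. Values below the detection limit of 20.2 are drawn at the limit, shown as a dotted line. At 8 h every red circle lies left of its blue square, whereas at 0 h the points of IFIT2, OAS1, IFI35, ISG15 and IFITM2 lie close together.

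The upstream sequence of these genes was set beside their values, since the response element is what the genes are known to share. The 250 bases before each start site in RefSeq (GRCh38.p14) were searched on both strands for the core of the element, GAAA and GAAA with any 2 bases between them (TTTC and TTTC on the other strand), with overlapping matches allowed. Of 27305 genes with an entry, 3.71% held a match before at least 1 of their start sites, as did 3.4% of the 10389 tested genes with an entry. Of the 19 interferon-stimulated genes lower at 8 h, 14 had an entry and 11 of them (78.6%) held a match. Over the whole list it was 21 of 29 genes (72.4%). Among the genes level at 0 h, 9 of 124 lower genes (7.26%) and 6 of 125 higher genes (4.8%) with an entry held one. A match is a description of the letters and not a site shown to be bound. A stretch of 30 bases is shown for 8 genes that were lower in TE13R at 8 h, of which ISG15, PARP14, TNFSF10 and IFNL1 were level at 0 h and the other 4 were lower at 0 h too. Each runs 5′ to 3′ on the strand of the gene, with the matching letters in capitals.
ISG15: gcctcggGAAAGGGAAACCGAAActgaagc
PARP14: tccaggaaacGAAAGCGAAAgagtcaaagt
TNFSF10: gaggagcttcTTTCAGTTTCcctcctttcc
IFNL1: ctaaggaTTTCAGTTTCTCTTTCcttcttg
IFIT3: agccgttaggTTTCATTTTCctcctcccaa
IFI44L: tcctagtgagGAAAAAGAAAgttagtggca
OAS3: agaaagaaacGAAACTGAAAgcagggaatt
EPSTI1: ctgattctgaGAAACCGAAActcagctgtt
These lie at chr1:1013377-1013406 (ISG15, plus strand), chr3:122680800-122680829 (PARP14, plus strand), chr3:172523598-172523627 (TNFSF10, minus strand), chr19:39296186-39296215 (IFNL1, plus strand), chr10:89327831-89327860 (IFIT3, plus strand), chr1:78620274-78620303 (IFI44L, plus strand), chr12:112938321-112938350 (OAS3, plus strand) and chr13:42992272-42992301 (EPSTI1, minus strand). In ISG15 and IFNL1, 2 overlapping matches make the longer run of capitals. The matches begin between 214 bases before the start site in IFNL1 and 29 bases before it in PARP14.

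Further genes with a known place in the interferon pathway are outside that list, and they were not taken from a list of their own, so that no share of them can be given. UBA7, the enzyme that activates ISG15 for joining to its targets, had the lowest difference of all genes level at 0 h, -2.97. It had an intensity of 6.22 in TE13R and 158 in TE13 at 8 h, after 75.6 in TE13R and 55.6 in TE13 at 0 h, and was at least 7.86-fold lower in TE13R. UBE2L6, the conjugating enzyme that acts after UBA7, had 3080 in TE13R and 7139 in TE13 at 8 h (difference -1.21, second probe -1.06), after 4822 in TE13R and 4981 in TE13 at 0 h. IFNL1, an interferon of the lambda family and so a ligand of the pathway, had 4.47 in TE13R and 97.6 in TE13 at 8 h. At 0 h it had stood near the limit, with 22.2 in TE13R and 14.6 in TE13, and at 24 h it had 519 in TE13R and 451 in TE13. Its second probe had a difference of -1.37 at 8 h. IFNL1 was thus at least 4.84-fold lower in TE13R at 8 h and as high as in TE13 at 24 h. TNFSF10, the death ligand TRAIL, had 5.67 in TE13R and 54.5 in TE13 at 8 h, after 1286 in TE13R and 1120 in TE13 at 0 h, and differed by -1.70 at 8 h and -1.29 at 24 h. APOL3, an apolipoprotein L, had 1.73 in TE13R and 72.2 in TE13 at 8 h (-2.32). PARP14 and ETV7 differed by -1.15 and -1.78. PARP10 differed by -1.13 with a second probe at -1.78, which had been -0.68 at 0 h. GBP1, a guanylate-binding protein, differed by -1.61 with a second probe at -1.90, which had been -1.25 at 0 h. Others of its family went different ways at 8 h, with -1.38 for GBP4, 0.08 for GBP3 and 1.36 for GBP6, whose second probe had -1.63. Some further genes tied to interferon were level at 0 h and higher in TE13R at 8 h. Among them were IFNW1, another interferon gene (1.29), AIM2 (1.22) and PML (1.16), and the second probe of PML had -0.34. The transcription factor gene IRF1 was not apart (-0.64). UBE2L6, PARP10, PARP14, ETV7, GBP1, GBP3, GBP4, GBP6, IFNW1, AIM2, PML and IRF1 were named after their values were seen. Of the pathway's receptor chains and kinases, 6 were chosen after their values were seen, and none was apart at 8 h. Their differences were -0.28 for IFNAR1, -0.26 for IFNAR2, 0.28 for IFNLR1, 0.10 for IL10RB, 0.11 for JAK1 and -0.05 for TYK2. The kinase gene JAK2, also named after its values were seen, was lower at 8 h (-1.35), with 0.43 at 0 h and 0.36 at 24 h.

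Of 16 genes of MHC class I and peptide loading, 3 were at least 2-fold lower in TE13R at 8 h and none was higher, against 5.05% lower and 4.19% higher over all genes. A negative difference was found for 13 of the 16, beside 6162 of all 12783 genes, and the median at 8 h was -0.49, beside -0.01 at 0 h and -0.41 at 24 h. PSMB9, a subunit of the immunoproteasome, had 1255 in TE13R and 3253 in TE13 at 8 h, after 905.5 in TE13R and 923 in TE13 at 0 h. Its difference was -1.36, and its second probe, with 55.1 in TE13R and 152 in TE13 at 8 h, differed by -1.24 and had already differed by -0.83 at 0 h. HLA-B had 8185 in TE13R and 16660 in TE13 at 8 h, and differed by -0.98 at 0 h as well. HLA-C had 151 in TE13R and 349 in TE13 at 8 h. The probes of HLA genes can take signal from one another, since the genes are near-identical in places. TAP1, a peptide transporter, PSMB8, another immunoproteasome subunit, and B2M, the shared light chain, had differences of -0.56, -0.53 and 0.08.

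The bright genes apart at 8 h and level at 0 h were lower in TE13R without exception. With the brighter 8 h array above 1000, a line drawn after the values were seen, 0 higher and 16 lower genes were level at 0 h, out of 3964 genes that bright. Among all bright genes 35 were higher and 62 lower at 8 h, and among those apart the same way at 0 h 30 were higher and 31 lower. The 16 genes were OAS1, PSMB9, IFI35, UBE2L6, PLAAT4, IRF9, ISG15, IFITM2, WARS1, CCL26, KRT8, ST6GALNAC6, SEMA3E, DHDH, DDIT4 and TCEAL3. The chemokine gene CCL26 had 636 in TE13R and 1753 in TE13 at 8 h, after 516 in TE13R and 449.8 in TE13 at 0 h. KRT8, a keratin of simple epithelium, had 1112 in TE13R and 2992 in TE13 at 8 h, after 484 in TE13R and 656 in TE13 at 0 h. SEMA3E, a secreted guidance factor, had 1751 in TE13R and 3682 in TE13 at 8 h, and at 24 h it was near level (0.18). WARS1, the tryptophanyl-tRNA synthetase, had 3659.8 in TE13R and 7407 in TE13 at 8 h, and both of its probes differed by -1.01 to -1.02. CCL26 and WARS1 were still 2-fold lower at 24 h (-1.05 and -1.08).

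WARS1 and DDIT4 belong to the ATF4 list, which split at 8 h. Of 29 measured ATF4 targets and amino acid stress genes, 7 (24.1%) were lower and 1 was higher in TE13R, against 5.05% and 4.19% of all genes, and the median was -0.09. DDIT4, an inhibitor of mTORC1, had 5844 in TE13R and 11843 in TE13 at 8 h, after 12702 in TE13R and 12491 in TE13 at 0 h. CTH, which makes cysteine from cystathionine, had 16.7 in TE13R and 126 in TE13 at 8 h and was lower at 0 h too (-1.23). NUPR1, a stress-induced nuclear protein, had 10.8 in TE13R and 46.0 in TE13 at 8 h, after 65.2 in TE13R and 37.6 in TE13 at 0 h. CHAC1, which breaks down glutathione, was the higher gene, with 106 in TE13R and 9.18 in TE13 at 8 h, at least 5.27-fold. At 0 h its difference was already 0.86. PSAT1, STC2 and JDP2, named after their values were seen, had differences of -1.29, -1.10 and -1.55 at 8 h. At 0 h these 3 had already differed by -1.05, -0.95 and -0.86 in the same order. The other 21 genes were not apart, among them ATF4 itself (0.06), ASNS (0.29) and TRIB3 (0.25), and at 0 h the same ASNS and TRIB3 had differences of 2.04 and 1.66.

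Genes that were higher in TE13R at 8 h and level at 0 h were mostly dim. The median intensity of the brighter 8 h array was 70.5 over the 163 higher genes and 82.1 over the 158 lower ones, while it was 273 and 262 for the higher and lower genes apart the same way at 0 h. On 96 of the 163 and 78 of the 158 an 8 h array was below the limit. SCML1, a gene of the Polycomb group family, had the largest difference, 3.33, with 145 in TE13R and -1.36 in TE13 at 8 h, after 583 in TE13R and 569 in TE13 at 0 h, but its second probe differed by -0.08. With an offset of 1, under which another probe was the brightest, its difference was -0.12. IFRD1, a transcriptional regulator, had 234 in TE13R and 22.6 in TE13 at 8 h, a 10.3-fold difference, after 339.85 in TE13R and 254 in TE13 at 0 h. It was still 2-fold higher at 24 h (1.35). TBL1XR1, a subunit of the NCoR corepressor complex, had 77.1 in TE13R and 0.37 in TE13 at 8 h, and -0.14 as its difference at 24 h. FANCI, a Fanconi anemia protein of DNA crosslink repair, had 112 in TE13R and 9.49 in TE13 at 8 h, after 335 in both TE13R and TE13 at 0 h, and its difference was 1.78 at 24 h. GNAQ, a G protein subunit, had 168 in TE13R and 30.4 in TE13 at 8 h, after 660.0 in TE13R and 685 in TE13 at 0 h. LAMB1, a laminin chain, had 165 in TE13R and 35.7 in TE13 at 8 h, after 366 in TE13R and 372 in TE13 at 0 h. In FANCI, GNAQ, LAMB1 and SCML1 both lines had lost signal since 0 h by the brightest probe. A larger loss in TE13 then follows from how the genes were chosen. The second probe of SCML1 had 390 in TE13R and 315 in TE13 at 0 h, and 26.9 in TE13R and 29.4 in TE13 at 8 h. LPGAT1, TBC1D17, CTAGE15, PPIB, UTP25 and MAN1A2 had differences between 2.35 and 1.82 at 8 h.

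Among the 12 lowest genes level at 0 h, those outside the interferon pathway held several that stayed lower. CRACDL had -9.27 in TE13R and 80.3 in TE13 at 8 h, after 133 in TE13R and 185 in TE13 at 0 h. FBXO44, an F-box protein, had 4.26 in TE13R and 106 in TE13 at 8 h, after 50.4 in TE13R and 76.6 in TE13 at 0 h, with a second probe at -1.18. ALPG, an alkaline phosphatase of germ cells and placenta with near-identical paralogs, had 10.8 in TE13R and 127 in TE13 at 8 h. PLEKHG6 had 18.04 in TE13R and 139 in TE13 at 8 h. All 4 were lower at 24 h as well, with differences of -2.60, -1.98, -2.68 and -1.98 in the order named. CAVIN4, CIRSR, APPBP2, MPP2 and ZNF112 had differences between -2.08 and -1.997 at 8 h, and none of these was 2-fold lower at 24 h.

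**Figure D3:**
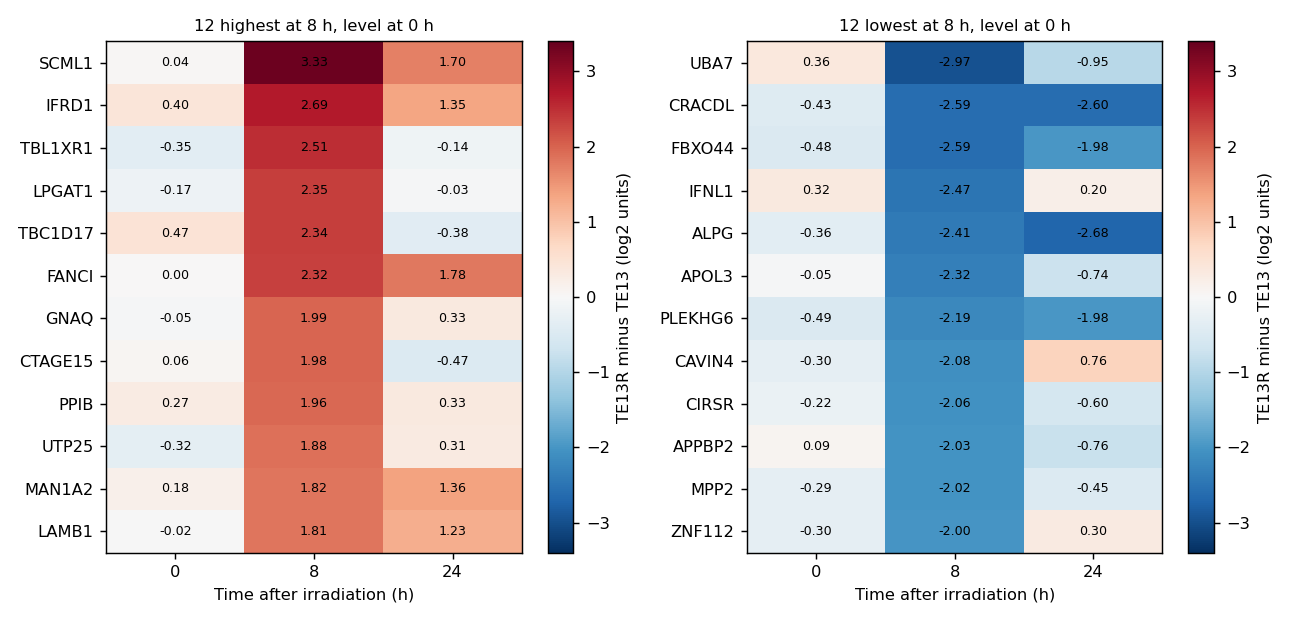
Difference between TE13R and TE13 in log2 units of intensity + 16 at 0, 8 and 24 h after irradiation for the 12 genes, provisional names left out, with the highest (left) and the 12 with the lowest (right) difference at 8 h among those level at 0 h. Red cells are higher and blue cells lower in TE13R, with the value printed in each cell. The 0 h column lies within 0.5 units of 0 by the choice of genes, and the 24 h column ranges from near 0 to the size at 8 h.

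The movement behind these differences was read from each line's own 0 h and 8 h arrays, which also chose the genes. Of the 163 higher genes, 61 were at least 1.5-fold lower at 8 h than at 0 h in both lines, 54 were lower in TE13 alone, 27 were higher in TE13R alone and 10 were higher in TE13R and lower in TE13. Over all genes 33.1% in TE13R and 33.9% in TE13 were 1.5-fold lower at 8 h than at 0 h, and 32% in TE13R and 36.4% in TE13 were higher. Of the 158 lower genes, 42 were lower at 8 h in TE13R alone, 38 were lower in both lines, 38 were higher in TE13 alone and 16 were lower in TE13R and higher in TE13. The median change since 0 h was -0.20 in TE13R and -1.51 in TE13 for the higher genes, and -0.84 in TE13R and 0.42 in TE13 for the lower genes.

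The values at 24 h and of second probes did not enter the classes, although the 24 h arrays took part in the filter on dim probes and in picking the brightest probe. Second probes are on the same arrays and are not replicates of the cells. Of 21 higher genes with a second probe above the limit, 15 had it higher and 9 (42.9%) at least 1.5-fold higher, against 14.2% of all 2578 genes with such a probe. Of 18 lower genes, 15 had it lower and 13 (72.2%) at least 1.5-fold lower, against 13.5%. At 24 h, 33 of the 163 higher genes (20.2%) were again at least 2-fold higher and 29 of the 158 lower genes (18.4%) at least 2-fold lower, against 5.17% and 6.09% of all genes. The same shares were 66.3% and 75.7% for the genes that were apart the same way at 0 h.

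Among the higher genes with second probes that were chosen after their values were seen, PRKX, a protein kinase with a close paralog, had 207 in TE13R and 48.3 in TE13 at 8 h, after 284 in TE13R and 245 in TE13 at 0 h. Its second probe was 2.07 higher at 8 h and had been 1.63 higher at 0 h too. LEF1, a transcription factor of the Wnt pathway, had 127 in TE13R and 34.8 in TE13 at 8 h (1.49), and its second probe had 59.0 in TE13R and -1.80 in TE13 (2.23), after a difference of 0.63 at 0 h. NOTUM, a secreted enzyme that inactivates Wnt ligands, had 129.97 in TE13R and 43.4 in TE13 at 8 h, with a second probe at 1.58 that had been 1.11 higher at 0 h. ALDH1B1, a mitochondrial aldehyde dehydrogenase, had 670.0 in TE13R and 246 in TE13 at 8 h, after 193 in TE13R and 155 in TE13 at 0 h, and the second probe differed by 1.03. CAPRIN2 differed by 1.60 with a second probe at 1.31. Among the lower genes SEMA3B, a secreted semaphorin, differed by -1.79 with a second probe at -2.59, which had been -1.41 at 0 h.

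**Figure D4:**
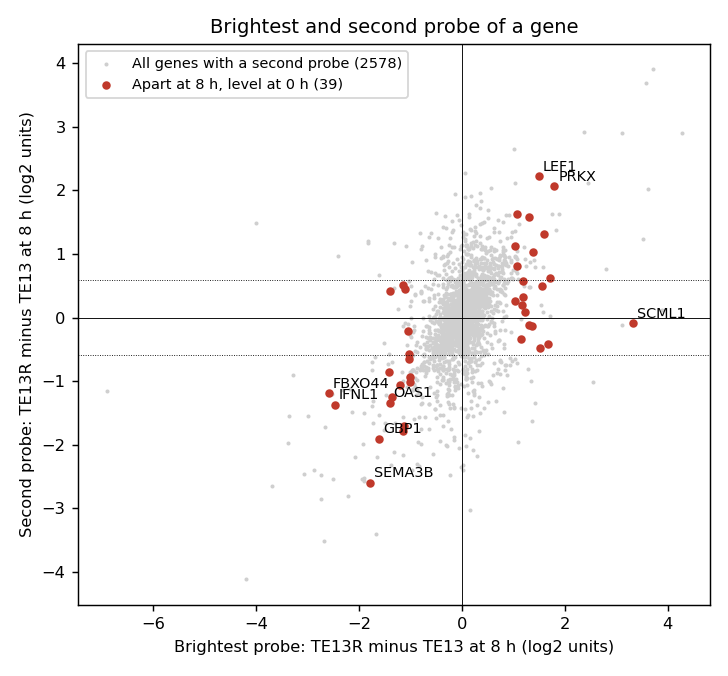
Difference between TE13R and TE13 at 8 h in log2 units of intensity + 16 for the second brightest probe (vertical axis) against the brightest probe (horizontal axis) of 2578 genes with a second probe above the limit. The 39 red points are genes apart at 8 h and level at 0 h, and dotted lines mark 1.5-fold for the second probe. SCML1 lies near 0 on the vertical axis, while LEF1, PRKX, SEMA3B, IFNL1, OAS1, FBXO44 and GBP1 lie past a dotted line.

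A reversal between 0 h and 8 h was seen in 13 genes, of which 11 were higher in TE13R at 0 h and lower at 8 h. GBP2, a guanylate-binding protein that interferons induce, had 801 in TE13R and 77.8 in TE13 at 0 h, and 21.2 in TE13R and 131 in TE13 at 8 h, a difference of 3.12 at 0 h and of -1.98 at 8 h. ALDH3B2, an aldehyde dehydrogenase, had 109 in TE13R and 14.2 in TE13 at 0 h, and 1.70 in TE13R and 43.1 in TE13 at 8 h. Its second probe had 28.6 in TE13R and 20.7 in TE13 at 0 h (0.28) and differed by -1.39 at 8 h, so that it was lower at 8 h but not higher by 2-fold at 0 h. CYP26A1, which breaks down retinoic acid, had 618 in TE13R and 229 in TE13 at 0 h, and 70.6 in TE13R and 208 in TE13 at 8 h. Dimmer probes of CYP26A1 with signal in TE13R at 0 h were also higher there (1.48 and 1.21). At 8 h they were below the limit in both lines and did not show the reversal. CFLAR, an inhibitor of death receptor signalling, had 147 in TE13R and 61.6 in TE13 at 0 h, and 16.9 in TE13R and 56.1 in TE13 at 8 h. ATP2C2, a calcium pump of the Golgi, had 274 in TE13R and 114 in TE13 at 0 h, and 73.3 in TE13R and 183 in TE13 at 8 h. In each of these 5 genes TE13R had lost more than 3-fold of its signal since 0 h. CAPN5, RNF122, RETREG3, ATOSB, CGN and HID1 were the other genes that were lower at 8 h, and on 5 of the 11 an 8 h array was below the limit. Both genes that turned higher, DPF3 and APOBEC3G, were dim, with 36.3 and 21.6 in TE13R at 8 h. A second probe of APOBEC3G was 0.36 lower at 8 h, below the limit in both lines. ATOSB, CGN and HID1 were named after their values were seen.

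The largest differences at 8 h were also there at 0 h, with GPC5 and MYADM at the ends. GPC5, the cell-surface proteoglycan glypican-5, had 1537 in TE13R and 12.9 in TE13 at 8 h, at least 76.2-fold higher. MYADM, a membrane protein gene, had -3.52 in TE13R and 1878 in TE13, at least 93.2-fold lower, and its dimmer second probe differed by -1.16. ACTL10, an actin-like gene, and IL13RA2, a decoy receptor of interleukin 13, widened most among the 6 highest genes. ACTL10 had 505 in TE13R and -7.16 in TE13 at 8 h, after 34.6 in TE13R and -8.69 in TE13 at 0 h. IL13RA2 had 414 in TE13R and -1.22 in TE13 at 8 h, after 31.2 in TE13R and -3.96 in TE13 at 0 h. Both were lower again at 24 h in TE13R, with 69.3 for ACTL10 and 92.2 for IL13RA2. In TE13R at 8 h KRT4 was higher by a factor of at least 30.02, PPP2R2C of 24.6 and GSPT2 of 18.8. MSLN, BEX5, IGFBP7 and COL5A1 were at least 86.3-fold, 91.2-fold, 70.6-fold and 48.0-fold lower, and CRIP1 was 65.2-fold lower.

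Among genes below the limit in both lines at 0 h, which were named after their values were seen, GNG11, a G protein subunit, had 157 in TE13R and -1.56 in TE13 at 8 h and was at least 7.78-fold higher. FABP6, a bile acid binding protein, had 2.46 in TE13R and 125 in TE13 at 8 h, and the chemokine gene CCL3 had 9.07 in TE13R and 92.6 in TE13. At 24 h GNG11 and FABP6 kept their direction, with 46.5 in TE13R and -2.02 in TE13 for GNG11 and 35.2 in TE13R and 84.9 in TE13 for FABP6. CCL3 had 25.9 in TE13R and 25.1 in TE13 at 24 h.

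The gene groups of the damage response and of the cell cycle were close to level at 8 h. Of 32 G2/M genes 1 was higher, BUB1B of the spindle checkpoint with 84.8 in TE13R and 14.6 in TE13, and the median was -0.03 at 8 h and -0.88 at 0 h. The G1/S genes had a median of -0.04 at 8 h and -0.42 at 0 h, with 1 of 26 lower, E2F1 (-1.04). Of 24 genes of double-strand break repair 1 was lower, BRIP1 (-1.12), and the median was -0.04 at 8 h and -0.52 at 0 h. Of 24 p53 targets POLH (-1.41) and PLK3 (-1.14) were lower and none was higher. The lines were also nearer to each other at 8 h in genes of squamous epithelium, with a median of 0.16 at 8 h and 0.99 at 0 h. Of 31 such genes, 10 were higher and 3 lower at 8 h, against 4.19% and 5.05% of all genes. Of these 13, CRCT1, SPRR2D and KLK5 were below the limit in both lines at 0 h, and none of the other 10 had been level there. KRT13, a keratin of the esophagus, had 9458 in TE13R and 1099.8 in TE13 at 8 h, after 33269 in TE13R and 246 in TE13 at 0 h. S100A8, which binds calcium and marks stressed epithelia, had 982 in TE13R and 149 in TE13 at 8 h, after 627 in TE13R and 1.25 in TE13 at 0 h. SERPINB3, a protease inhibitor, was lower, with 13.3 in TE13R and 183 in TE13 at 8 h. SPRR2D, named after its values were seen, was higher by its brightest probe (2.54) and lower by its second (-1.01), and with an offset of 1 its difference was -1.82. Of 15 metallothioneins and zinc transporters 4 (26.7%) were lower and 0 higher at 8 h, against 5.05% lower over all genes. At 0 h 5 of the 15 were already lower, and the median was -0.57 at 0 h and -0.15 at 8 h. MT1F, which binds zinc and copper, had 1330 in TE13R and 3889 in TE13 at 8 h. Its difference was -1.54 at 8 h and -0.57 at 0 h. Metallothionein genes are near-identical, and their probes can share signal. None of 42 cytosolic ribosomal protein genes and none of 31 SR protein, hnRNP and CLK genes was apart.

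**Figure D5:**
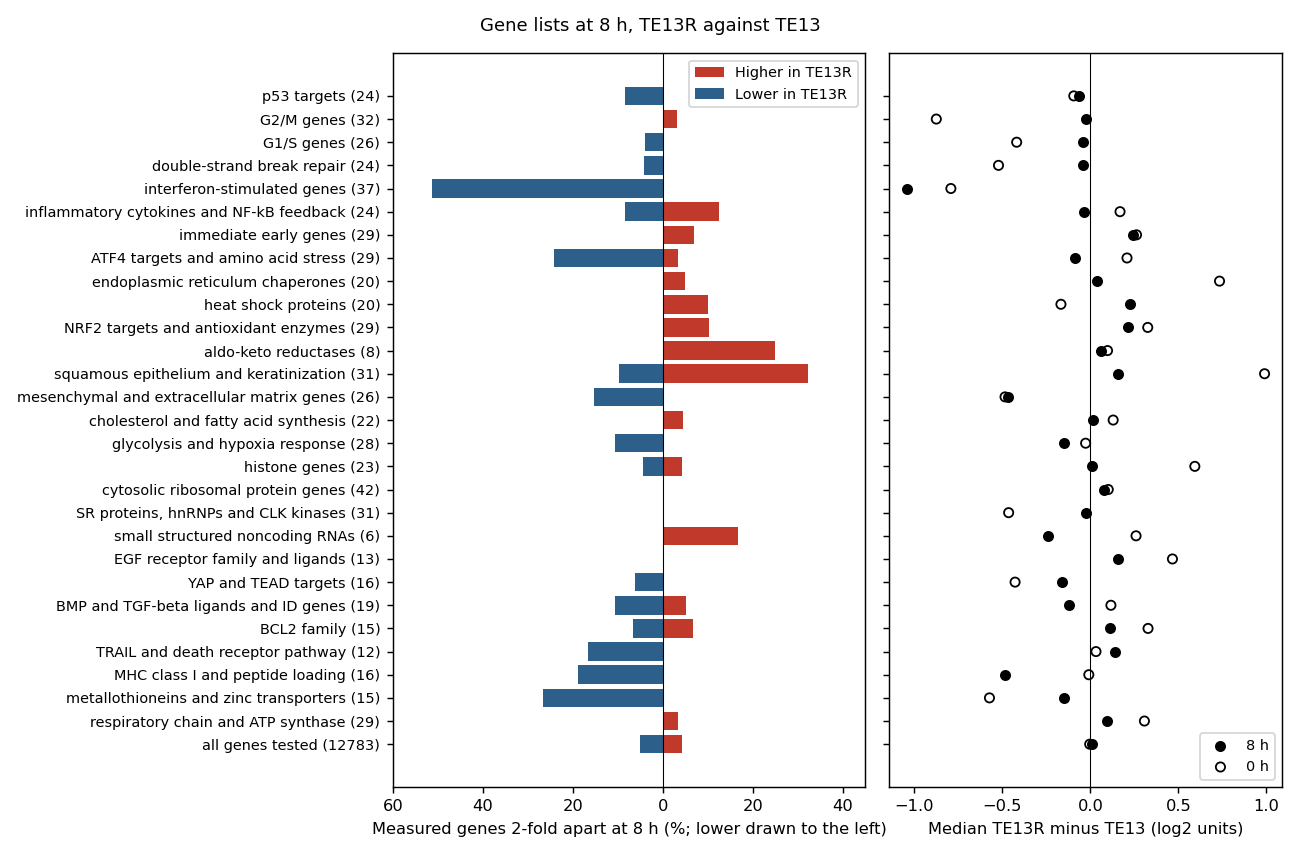
Left, share of the measured genes of each list at least 2-fold higher (red, right of 0) or lower (blue, left of 0) in TE13R at 8 h, in percent, with the number measured in brackets. Right, median difference between TE13R and TE13 in log2 units of intensity + 16 at 8 h (filled) and 0 h (open). The interferon-stimulated genes have the longest blue bar, 51.4%, against 5.05% over all genes in the lowest row.

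AKR1C3, the aldo-keto reductase on which the study turned, was not apart at 8 h, with 26809 in TE13R and 25136 in TE13. AKR1C2 had 37370 in TE13R and 43565 in TE13 by its brightest probe, and a second, dimmer probe differed by 1.02. The paralogs are close in sequence, and their probes can share signal. The superoxide dismutase gene SOD1 and the reference genes GAPDH and ACTB had differences of -0.07, -0.06 and 0.15.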

How the data were processed

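The authors collected the array data in BeadStudio and deposited 1 intensity per probe and array on a linear scale for 48803 probes, background subtracted and brought to 1 scale (median 7.95 to 7.96). The sources used here do not state how they were scaled or with which software version. The methods give profiling in triplicate and a DiffScore, which needs bead-level errors and was not computed. No further normalization was applied. With Python 3.11.15, numpy 2.4.6 and pandas 2.3.3, negative values were replaced by 0 and log2 was taken after adding 16. Probes in the upper 50% on at least 3 of 6 arrays were kept and the brightest stood for each gene, named through the platform annotation (27578 probes with 1 symbol, 13 with several and 21212 with none). The detection limit equals 3 root mean squares of the negative values. The class limits were tested on simulated data, with differences set only in genes well above the detection limit and noise in proportion to intensity. That test does not cover the dim genes.

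Genes were named by a rule: the 12 highest and lowest differences among genes level at 0 h, up to 8 reversed genes in each direction, up to 4 genes apart per list with the largest change of the difference since 0 h (2 where none was apart), the 6 highest and lowest whatever their 0 h value, and AKR1C3, AKR1C1, AKR1C2, SOD1, GAPDH and ACTB. AKR1C1 did not pass the filter on dim probes. The text reports only part of the genes so obtained, Y-linked genes and provisional names were passed over, and other genes were picked with their values known. The 33 gene lists, members and comparisons were chosen with earlier results of these data known. Alternatives were an offset of 1 or 64, centring on the median, quantile normalization, other filters, limits and sizes of difference, and the mean of a gene's probes.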

Additional observations from a re-analysis of the deposited data

Results flagged for a closer look

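Each of 13 genes was at least 1 log2 unit apart in one direction at 0 h and in the other at 8 h. With 1 array for each line and time, the change of direction was not tested. For dim genes among them a 2-fold difference in intensity is not shown, with at least 1.07-fold for APOBEC3G and 1.80-fold for DPF3 at 8 h. Lower in TE13R at 8 h and higher at 0 h were GBP2 (-1.98 at 8 h and 3.12 at 0 h), CAPN5 (-1.93 and 1.11), ALDH3B2 (-1.74 and 2.05), RNF122 (-1.56 and 1.04), RETREG3 (-1.45 and 1.12), CYP26A1 (-1.37 and 1.37), ATP2C2 (-1.15 and 1.16), CFLAR (-1.13 and 1.07), ATOSB (-1.13 and 1.57), CGN (-1.10 and 1.02) and HID1 (-1.02 and 1.78). Higher in TE13R at 8 h and lower at 0 h were DPF3 (1.13 and -1.15) and APOBEC3G (1.23 and -1.20). No group has the 4 samples that a search for outlying samples needs.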

How the results depend on the processing

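No paired analysis was possible because each line and time has 1 array. Quantile normalization and centring on the median left every count within 1.5 times its value. With an offset of 1, 64, a limit of 1.5-fold or 3-fold, the 1181 genes apart at 8 h became 1818, 420, 2758 and 406, and the 13 reversed genes 48, 2, 41 and 3, or 60 where 0.5 units at 0 h sufficed. The 321 genes level at 0 h became 102 with an offset of 64, 514 with no detection limit, 960 and 59 at 1.5-fold and 3-fold, and 167 and 557 with level set at 0.25 and 1. Of these 321 genes 63 remained with an offset of 64, and 50.8% of the 321 were higher in TE13R but 30.4% of the 102. The same alternatives, added after the data were seen, moved the 22 level genes with a second probe at 1.5-fold to 10, 34, 68, 7, 8 and 45, and the 62 level genes apart at 24 h to 36, 94, 318, 11, 28 and 136, and to 95 with an offset of 1. At 3-fold 11 of the 19 interferon-stimulated genes and 1 of the 7 ATF4 targets were lower. With an offset of 1, where another probe is the brightest, SCML1 had -0.12 and SPRR2D -1.82. In all, 1133 values of named genes moved by less than the spread between probes of a gene (0.45 log2 units), 197 by more and 2 changed sign. This pools unlike settings. Of 193 named genes, 80 moved by more and 2 changed sign with an offset of 1, and 97 moved with an offset of 64. The mean of the probes moved 20. With quantile normalization, centring on the median or no filter on dim probes, all 193 stayed within that spread. With so few arrays precision is limited throughout, and most for dim genes near 20.2.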
